A study of Mus musculus with 14 samples.

Results

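The endothelial cell markers examined were 9 genes, Pecam1, Plvap, Vwf, Kdr, Flt1, Tie1, Tek, Eng and Esam. Their probe sets were all those whose gene symbol in the authors' deposited significance table equals one of these names, which gave 10 probe sets for 8 genes. Esam is listed there under its older symbol Esam1 and was matched through the RefSeq synonym, which brought the set to 11 of 22690 probe sets on the array (22626 without control probe sets). Flt1 has 3 probe sets and each of the other 8 genes has 1.

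Expression was measured on 14 one-colour Affymetrix arrays from the distal large intestine of male mice. CAC tumors (colitis-associated tumors, 4 arrays, 1 mouse each) arose in C57BL/6J wild-type mice given azoxymethane, a carcinogen, at 10 mg/kg and then 3 cycles of 2.5% dextran sodium sulfate in the drinking water, an agent that injures the colon lining, each of 7 days with 14 days of recovery. The CAC control was tumor-free distal colon epithelium of C57BL/6J mice (2 arrays, each a pool of 5 mice), and the labels do not say whether these mice had received either agent. Sporadic tumors (5 arrays, 1 mouse each) came from C57BL/6J-ApcMin/+/J mice, which carry a germline Apc mutation in all tissues and got no further treatment that the labels name. The sporadic control was tumor-free distal colon epithelium (3 arrays, each a pool of 4 mice) labelled with the same ApcMin/+ strain. Ages of the mice are not stated. Control RNA came from purified epithelium and tumor RNA from tumors that had gone through the same incubation but were then homogenized whole. All CAC arrays form experimental block 1 and all sporadic arrays block 2, so the model and the block cannot be told apart in any comparison across models. Tumor against control was compared within a block.

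Signals were deposited as GCRMA intensities, corrected for background and rounded to whole numbers from 2 to 31599. Levels of a group are geometric means. Each change is the tumor's log2 mean minus the control's, ± its standard error in limma, and adjusted p is limma's, by Benjamini-Hochberg over all 22626 probe sets. A mean below 10 counts here as lying at the floor of the arrays, and a fold against such a mean depends on that floor. Signals of different probe sets are on different scales, so levels of different genes are not set against each other. Sums over genes serve only to compare arrays, and the brightest probe sets weigh most in them. Array medians were 15 to 18. In a principal component analysis, tumors separated from controls on an axis with 71.6% of the variance and the blocks on one with 10.7%. On the third axis, with 4.26%, CAC tumor 1 scored 55.1 while the remaining arrays scored -19.1 to 12.2. Results are therefore given with and without CAC tumor 1 where it matters. Precision is limited by how few arrays each group has. Tumor replicates are single mice and control replicates are pools, so their spreads are not of one kind.

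Endothelial cells line blood and lymph vessels. PECAM1 and ESAM join them to each other, PLVAP forms the diaphragms of their fenestrae and caveolae, and von Willebrand factor is the clotting protein they store. KDR and FLT1 are the receptors for vascular endothelial growth factor, TEK is the receptor for angiopoietins with TIE1 as its partner, and endoglin, encoded by Eng, is a co-receptor for ligands of the TGF-beta family. In the colon the vessels lie in the lamina propria under the epithelium, so purified epithelium should carry few of these transcripts, while tumors recruit vessels as they grow. Several of the genes are also active elsewhere: Pecam1 in leukocytes and platelets, Vwf in megakaryocytes, and Eng in activated macrophages and stromal cells.

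In CAC tumors Plvap, Vwf, Pecam1 and Esam, genes of vessel structure and storage granules, were higher than in CAC control epithelium, and in sporadic tumors Plvap, Vwf and Pecam1 were higher than in sporadic control epithelium, with log2 changes from 1.76 to 3.76. Of the growth factor receptors, Flt1 was higher in both kinds of tumor on 1 of its 3 probe sets, Eng passed the test in sporadic tumors, and Kdr, Tie1 and Tek passed in neither model. By limma 5 of 11 member probe sets were higher and 0 lower in CAC tumors, beside 14.2% of all probe sets called higher and 25.6% called lower. In sporadic tumors 5 of 11 were higher and 0 lower, beside 17.8% of all probe sets called higher and 28.2% called lower. At an unadjusted p under 0.05 the members with a difference were 5 for CAC tumors and 7 for sporadic tumors, all of them higher. The share of all probe sets at that unadjusted threshold is not given here, so these and later unadjusted counts cannot be judged beside it. The median log2 change of the members was 0.56 for CAC tumors, beside -0.05 over all probe sets, and 1.05 for sporadic tumors, beside -0.04. In bulk tissue, more endothelial cells and more RNA per endothelial cell cannot be told apart. Tumors were homogenized whole and controls were purified epithelium, so tumor state and tissue preparation cannot be told apart in these comparisons. Higher here means higher than in purified epithelium, and whole normal colon was not measured.

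**Figure D1:**
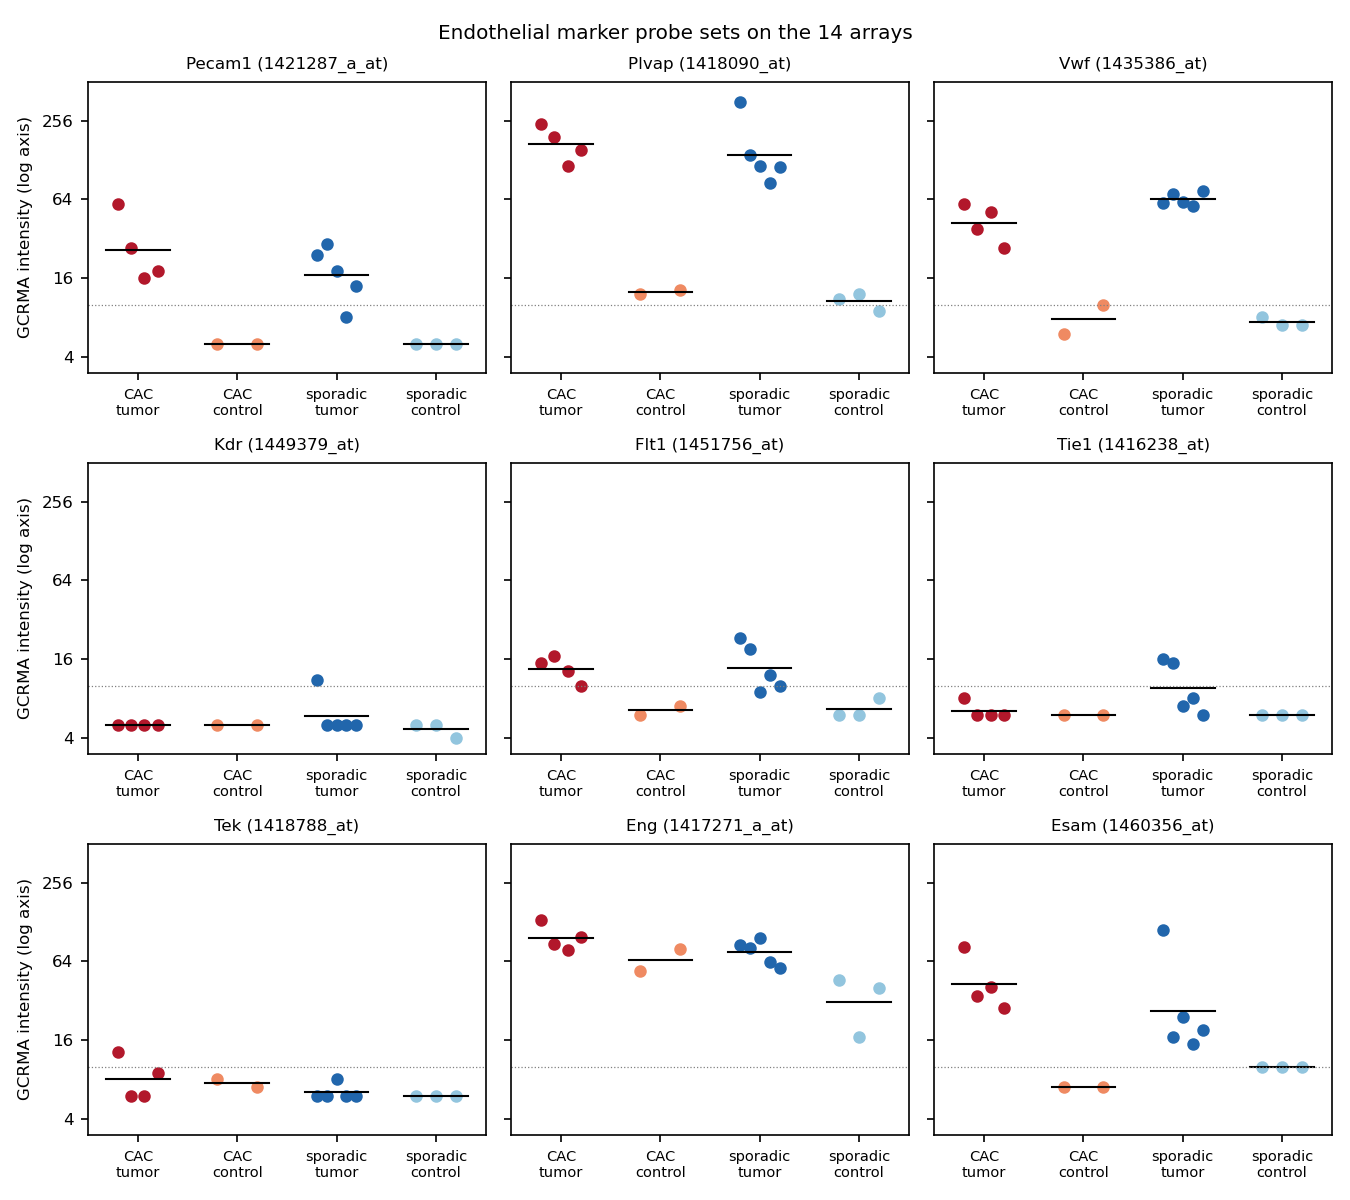
GCRMA intensity (log axis) of the brightest probe set of each gene, with 1 point per array and a bar at the geometric mean, for CAC tumors, CAC controls, sporadic tumors and sporadic controls; the dotted line marks an intensity of 10. Plvap, Vwf, Esam and Pecam1 sit above their controls in all tumors, Eng is well above the floor in all groups, and Kdr and Tek stay between 4 and 13.

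Plvap had intensities of 243, 191, 115 and 154 in the 4 CAC tumors, against 12 and 13 in the 2 CAC control pools. Sporadic tumors had 359, 141, 115, 85 and 114, against 11, 12 and 9 in the 3 sporadic control pools. No tumor overlapped its controls, and the dimmest tumor of each model was still several times above the brightest control. The log2 change was 3.76 ± 0.48 in CAC tumors (13.6-fold, adjusted p 0.00012) and 3.74 ± 0.41 in sporadic tumors (13.3-fold, adjusted p 2.73e-05). These changes differed by 0.02 ± 0.63 on the log2 scale (adjusted p 1), and the tumors of the 2 models differed by 0.26 ± 0.37 (adjusted p 0.778). Plvap was thus the member with the largest log2 change in both models. The order of its group levels was CAC tumors (169), sporadic tumors (141), CAC controls (12.5) and sporadic controls (10.6), and neither the pair of tumor groups nor the pair of control groups passed the test.

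Vwf had intensities of 59, 38, 51 and 27 in CAC tumors, against 6 and 10 in CAC controls. The sporadic tumors showed 60, 71, 61, 57 and 74, against 8, 7 and 7 in sporadic controls. The sporadic tumors were close to each other, with an SD of 0.16 on the log2 scale (n = 5), while the CAC tumors spread more widely (SD 0.50, n = 4). Vwf rose by 2.44 ± 0.29 in CAC tumors (5.41-fold, adjusted p 6.33e-05) and by 3.13 ± 0.24 in sporadic tumors (8.78-fold, adjusted p 1.71e-06). CAC tumors averaged 41.9 and sporadic tumors 64.3, a difference of -0.62 ± 0.22 that did not pass (adjusted p 0.093). Without CAC tumor 1 this difference was -0.78 and passed by limma (adjusted p 0.0382). Without both tumors numbered 1 it was -0.81 and did not pass (adjusted p 0.0582). Whether the tumors pass as different thus depends on which arrays are left out. The difference of the tumor changes, -0.70 ± 0.37, did not pass with all arrays (adjusted p 0.297). Both control groups were near the floor, at 7.75 and 7.32.

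Pecam1 had intensities of 59, 27, 16 and 18 in CAC tumors, against 5 and 5 in CAC controls. Its sporadic tumor values were 24, 29, 18, 8 and 14, against 5 on all 3 sporadic control arrays. Every tumor lay above every control of its model, although sporadic tumor 4 did so by 3 units. The log2 change was 2.38 ± 0.55 in CAC tumors (adjusted p 0.00519) and 1.76 ± 0.47 in sporadic tumors (adjusted p 0.00981), and the controls sat at the floor. Adding 16 to every intensity before log2 took the sporadic change to 0.69 with an adjusted p of 0.0609. The tumors of the 2 models differed by 0.62 ± 0.43 (adjusted p 0.419).

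Esam had intensities of 83, 35, 41 and 28 in CAC tumors, against 7 and 7 in CAC controls. For sporadic tumors the values were 112, 17, 24, 15 and 19, against 10 on all 3 sporadic control arrays. No tumor overlapped its controls, and 1 sporadic tumor stood far above the other 4. The change passed in CAC tumors, at 2.61 ± 0.71 (6.1-fold, adjusted p 0.0126), with adjusted p of 0.0646 without CAC control 1 and 0.0654 without CAC control 2, and of 0.0561 with 16 added to every intensity. In sporadic tumors it was 1.40 ± 0.60 and did not pass (adjusted p 0.0785). Without sporadic tumor 1 the change was smaller, 0.88, and passed (adjusted p 0.0447). The models' tumor changes differed by 1.20 ± 0.93 (adjusted p 0.508). With both tumors numbered 1 left out, a setting chosen after the data were seen, that difference had an adjusted p of 0.0098.

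**Figure D2:**
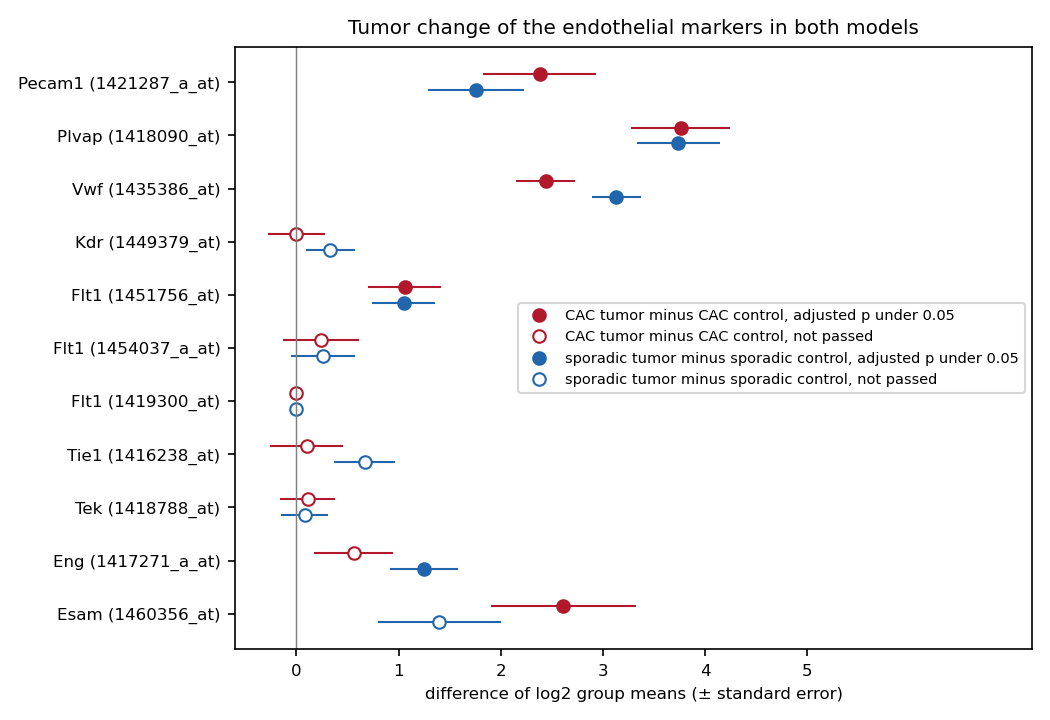
Difference of log2 group means, tumor minus control, for each of the 11 member probe sets in the CAC model (red) and the sporadic model (blue), with bars of 1 standard error; filled points passed an adjusted p of 0.05 by limma. Plvap lies at 3.76 and 3.74, Vwf at 2.44 and 3.13, and the probe sets of Kdr and Tek and both dimmer probe sets of Flt1 lie between 0 and 0.33.

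Of the receptors, Eng was the one with a clear signal in control epithelium. It had intensities of 132, 87, 78 and 99 in CAC tumors, against 54 and 80 in CAC controls, so that the groups overlapped at CAC tumor 3. Sporadic tumors gave 86, 81, 96, 63 and 57, against 46, 17 and 40 in sporadic controls, with no overlap. The log2 change was 0.56 ± 0.39 in CAC tumors (adjusted p 0.29) and 1.25 ± 0.33 in sporadic tumors (adjusted p 0.00885). Without sporadic control 2, the pool at 17, the sporadic change was 0.81 and still passed (adjusted p 0.029). The tumor groups averaged 97 and 75.2 (difference 0.37 ± 0.30, adjusted p 0.505), and the control groups 65.7 for CAC and 31.5 for sporadic (difference 1.06 ± 0.41, adjusted p 0.112). The test of the difference between the models' tumor changes gave -0.69 ± 0.50 (adjusted p 0.476), so the call in 1 model and not the other is not shown to be a difference between them.

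Flt1 was measured by 3 probe sets that disagreed. Probe set 1451756_at had intensities of 15, 17, 13 and 10 in CAC tumors, against 6 and 7 in CAC controls, and 23, 19, 9, 12 and 10 in sporadic tumors, against 6, 6 and 8 in sporadic controls. All tumors lay above all controls of their model, but by as little as 1 unit in the sporadic model. Its log2 change was 1.06 ± 0.36 in CAC tumors (adjusted p 0.0389) and 1.05 ± 0.31 in sporadic tumors (adjusted p 0.0161). The CAC call ended without any one of CAC tumors 1, 2 and 3 or either CAC control, with adjusted p from 0.0613 to 0.183, and with 16 added to every intensity (adjusted p 0.082). The sporadic call ended without sporadic control 1 or 2 (adjusted p 0.0614 and 0.0574). Probe set 1454037_a_at had 16, 6, 8 and 6 in CAC tumors, against 7 and 7 in CAC controls, and did not pass (log2 0.24 ± 0.37, adjusted p 0.714). Among sporadic tumors it had 11, 8, 6, 6 and 6, against 6 on all sporadic controls (log2 0.26 ± 0.31, adjusted p 0.572). Probe set 1419300_at was at 4 on all 14 arrays.

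Kdr, the main signalling receptor for vascular endothelial growth factor, was near the floor in all 4 groups. It had an intensity of 5 in all 4 CAC tumors and both CAC controls. The 5 sporadic tumors had 11, 5, 5, 5 and 5, against 5, 5 and 4 in sporadic controls (log2 0.33 ± 0.24, adjusted p 0.288). At these values a change in the transcript was not detectable with this probe set.

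Tie1 had intensities of 8, 6, 6 and 6 in CAC tumors, against 6 and 6 in CAC controls (log2 0.10 ± 0.36, adjusted p 0.942). In sporadic tumors it had 16, 15, 7, 8 and 6, against 6 on all sporadic controls (log2 0.67 ± 0.30, adjusted p 0.0958), with sporadic tumors 1 and 2 the only arrays above 10. Without sporadic tumor 5 the change of Tie1 passed (log2 0.84, adjusted p 0.0323). Tek had 13, 6, 6 and 9 in CAC tumors, against 8 and 7 in CAC controls (log2 0.11 ± 0.27, adjusted p 0.869). In sporadic tumors it had 6, 6, 8, 6 and 6, against 6 on all sporadic controls (log2 0.08 ± 0.23, adjusted p 0.875). Together with Kdr and the 2 dimmer probe sets of Flt1, these make 5 of the 11 probe sets whose 4 group means were all under 10.

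The arrays of each model overlapped between tumors and controls for the probe sets that failed, with 1 exception. In the CAC model 5 of 11 member probe sets had every tumor above every control, beside 17.9% of all probe sets, and these were the 5 that passed. In the sporadic model there were 6 of 11, beside 17.5% of all probe sets, namely the 5 that passed and Esam. Between the tumors of the 2 models 0 of 11 passed in either direction, beside 7.88% of all probe sets called higher and 7.58% called lower in CAC tumors. At an unadjusted p under 0.05 the count was 1, Vwf. In the control groups, 3 of 11 members had both CAC controls above all sporadic controls (Flt1 probe set 1454037_a_at, Tek and Eng) and 1 had them below (Esam), beside 17.3% and 17.1% of all probe sets. Between the control groups 0 of 11 passed, beside 7.61% called higher and 6.40% called lower in CAC controls, with 1 at an unadjusted p under 0.05, Eng. In the difference of the tumor changes 0 of 11 passed by limma and 0 had an unadjusted p under 0.05, beside 3.50% called higher and 4.20% called lower. The authors' deposited table gives a corrected p of 0.05 for Pecam1 and 0.0221 for Esam in the CAC comparison, and 0.0565 for Flt1 probe set 1451756_at in the sporadic one. It also gives Kdr as down in the CAC comparison (1.03-fold, corrected p 0.00557). Flt1 probe set 1419300_at is down there in both comparisons (1.03-fold and 1.02-fold, corrected p 0.00327 and 0.0238). In the rounded intensities Kdr was at 5 on all CAC arrays and this Flt1 probe set at 4 on all arrays.

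Many members had their highest value in the same tumor. The same count over all probe sets is not given here, so the member counts cannot be judged beside it. Of the 9 member probe sets whose values were not all equal in CAC tumors, 8 had their single highest value in CAC tumor 1 and 1 in CAC tumor 2. In sporadic tumors 6 of 10 had it in sporadic tumor 1, namely Plvap, Kdr, Flt1 on 2 probe sets, Tie1 and Esam, while Pecam1 was highest in tumor 2, Eng and Tek in tumor 3, and Vwf in tumor 5. Summed over the brightest probe set of each gene, the members came to 617, 412, 331 and 356 in CAC tumors, against 109 and 140 in CAC controls. In sporadic tumors the sums were 697, 384, 343, 259 and 305, against 103, 74 and 95 in sporadic controls. Without CAC tumor 1 the CAC changes of Pecam1 (log2 1.99, adjusted p 0.00745), Plvap (3.59, adjusted p 0.000386), Vwf (2.27, adjusted p 0.000132) and Esam (2.29, adjusted p 0.0286) still passed, and that of Flt1 did not. Without sporadic tumor 1 the sporadic changes of Pecam1 (log2 1.64, adjusted p 0.0226), Plvap (3.40, adjusted p 3.03e-06), Vwf (3.16, adjusted p 8.76e-06), Flt1 (0.86, adjusted p 0.0241) and Eng (1.21, adjusted p 0.02) still passed.

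**Figure D3:**
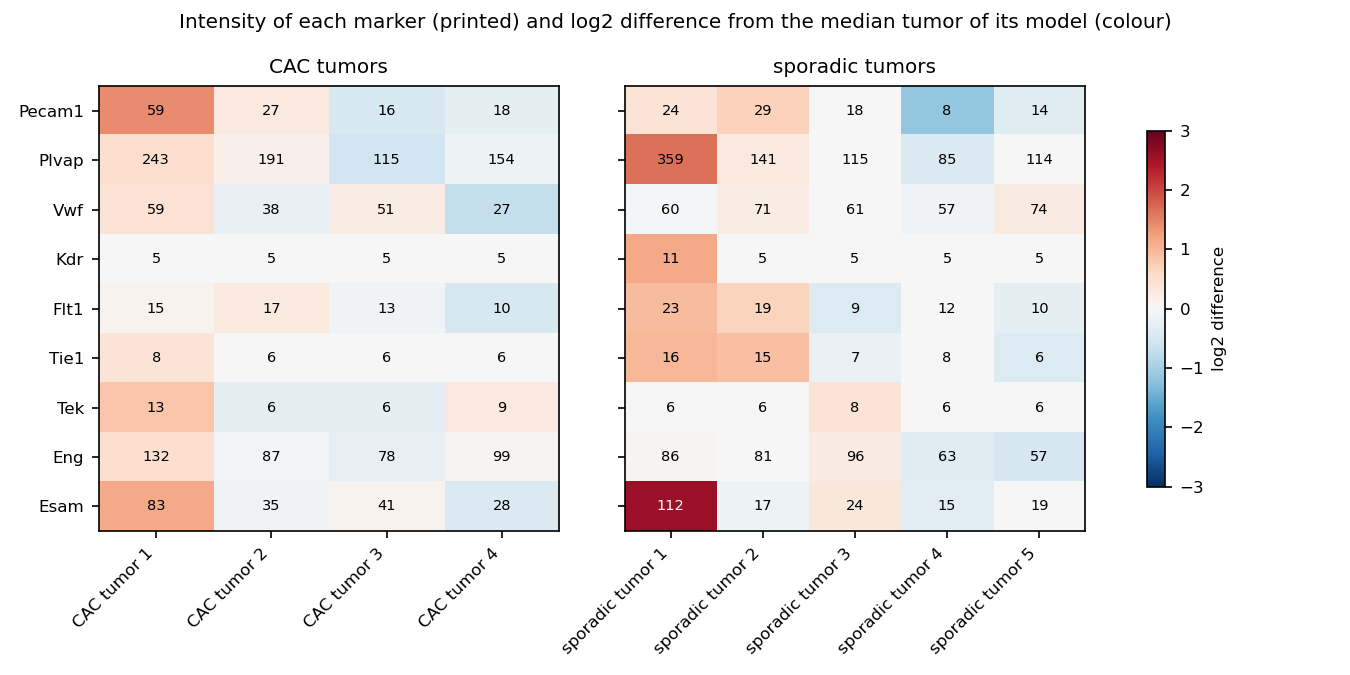
Intensity of each gene's brightest probe set (number in the cell) in the 4 CAC tumors and the 5 sporadic tumors, coloured by the log2 difference from the median tumor of the same model. CAC tumor 1 is highest for Pecam1 (59), Plvap (243) and Esam (83), and sporadic tumor 1 for Plvap (359) and Esam (112), while Vwf stays between 57 and 74 in all sporadic tumors.

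Some other vascular genes were highest in the same 2 tumors, and others were not. Aplnr, the apelin receptor gene, listed under its older symbol Agtrl1, had 162, 113, 22 and 8 in CAC tumors, against 5 and 5 in CAC controls, and 155, 5, 4, 5 and 5 in sporadic tumors, against 5 on all sporadic controls. Cd93, a surface glycoprotein gene of endothelium and myeloid cells, had 61, 28, 14 and 19 in CAC tumors, against 7 and 7, and 110, 32, 22, 12 and 13 in sporadic tumors, against 7 on all sporadic controls. Emcn, which encodes the endothelial sialomucin endomucin, had 108, 16, 11 and 14 in CAC tumors, against 8 and 8, and 29, 20, 7, 7 and 9 in sporadic tumors, against 8, 7 and 8. Aplnr and Emcn were picked after their values were seen, and neither passed in either model. Cd93 passed in sporadic tumors (log2 1.90, adjusted p 0.0419). The tight junction gene Cldn5 had 5, 15, 10, 12 and 12 in sporadic tumors, lowest in sporadic tumor 1. Lyve1, a lymphatic gene listed as Xlkd1, had 55, 125, 175, 282 and 204 there, also lowest in sporadic tumor 1. In CAC tumors both were highest in CAC tumor 1, Cldn5 with 7, 5, 5 and 5 and Lyve1 with 148, 21, 20 and 14.

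**Figure D4:**
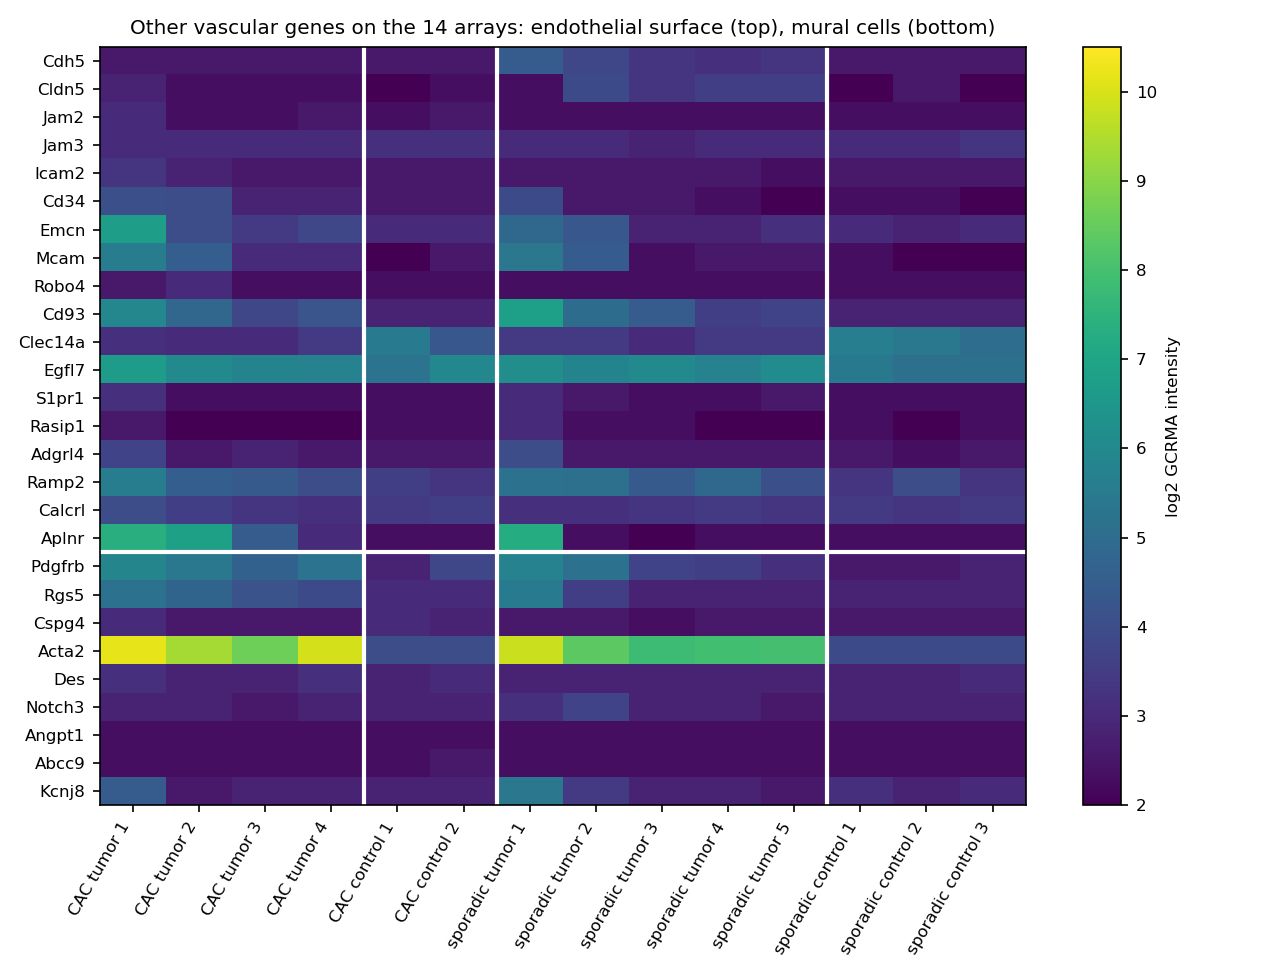
Log2 GCRMA intensity (colour) of 18 other endothelial junction and surface genes (above the white line) and 9 further mural cell genes (below it) on the 14 arrays, ordered as CAC tumors, CAC controls, sporadic tumors and sporadic controls. Aplnr, Cd93, Emcn and Mcam are brightest in CAC tumor 1 and sporadic tumor 1, most of the other genes stay near the floor, and Clec14a is brighter in controls.

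Of the 18 measured genes of endothelial junctions and surface, 0 rose and 1 fell in CAC tumors, and 5 rose and 1 fell in sporadic tumors. Of all 13095 genes, 2095 were called higher and 3347 lower in CAC tumors, and 2563 higher and 3837 lower in sporadic tumors. Those that rose in sporadic tumors were Cd93, Ramp2, the tight junction gene Cldn5 (log2 1.15 ± 0.31), Cdh5, which encodes VE-cadherin (log2 1.03), and Egfl7 (log2 0.77), the last 2 named beyond the naming rule. Without sporadic control 3 the count was 1, and without sporadic control 1 or 2 it was 3. Cdh5 had 22, 14, 10, 9 and 10 in sporadic tumors, against 6 on all sporadic controls, and was at 6 on all 6 CAC arrays. The gene that fell in both models was Clec14a (log2 -1.77 in CAC and -1.99 in sporadic tumors), a C-type lectin gene known from endothelium, which had 46 and 20 in CAC control epithelium and 50, 42 and 33 in sporadic control epithelium. The median log2 change of the list was 0.26 for CAC tumors and 0.42 for sporadic tumors, beside -0.03 and -0.04 over all genes. The counts of the later gene lists are also to be read beside those over all 13095 genes.

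Among the ligands and partners of the member receptors, Vegfa, the principal ligand of KDR, fell in CAC tumors, with 47, 39, 52 and 48 against 81 and 76 in CAC controls (log2 -0.76, adjusted p 0.0092), a call that was lost without CAC control 1. It had 48, 32, 48, 35 and 54 in sporadic tumors, against 53, 53 and 58 in sporadic controls (log2 -0.36, adjusted p 0.1). Vegfc, whose protein acts mainly on lymphatic vessels, rose in sporadic tumors, with 65, 59, 96, 154 and 127 against 27, 26 and 36 (log2 1.67, adjusted p 0.00112), and its change differed between the models (adjusted p 0.04). Pgf, the ligand gene for FLT1, had 13, 18, 10, 14 and 14 in sporadic tumors, against 7 on all sporadic controls (log2 0.95, adjusted p 0.00262). Angpt2, which encodes the angiopoietin that destabilizes vessels, rose in both models, to 50, 24, 24 and 23 in CAC tumors, against 18 and 5, and to 115, 130, 75, 104 and 130 in sporadic tumors, against 11, 9 and 7 (log2 1.59 and 3.62, adjusted p 0.0217 and 3.36e-05). Angpt1, the activating ligand of TEK, was at 5 on all 14 arrays. Of 8 genes for VEGF ligands and co-receptors, 0 rose and 1 fell in the CAC model, and 2 rose and 0 fell in the sporadic model, with median log2 changes of -0.03 and 0.32. Of 11 angiopoietin and endoglin partners, 3 rose and 1 fell in the CAC model, and 4 rose and 0 fell in the sporadic model. The 1 that fell was Tgfbr3, at 4 on all CAC tumors against 5 and 5. The type II TGF-beta receptor gene Tgfbr2 (log2 1.66 and 1.56) and Id3 (log2 1.40 and 2.14), a target of BMP signalling, were among them in both models.

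Of 11 genes for endothelial transcription factors, 4 rose and 1 fell in the CAC model, and 5 rose and 2 fell in the sporadic model, with a median log2 change of 0.00 in each. The factor gene that fell in the CAC model was Fli1, at 6 on all CAC tumors and 7 and 7 on CAC controls, a step of 1 unit near the floor. In the sporadic model Klf2 fell, with 20, 55, 96, 117 and 116 in tumors against 673, 428 and 419 in controls (log2 -2.87, adjusted p 0.0025). Its CAC change did not pass (log2 -0.98, adjusted p 0.322). The other sporadic fall was Sox7, at 5 to 6 against 6, named beyond the naming rule. Sox18 rose in both models (log2 2.20 and 2.21). For Sox17 and Lmo2 the highest tumors were not those of the members. Sox17 had 6, 197, 324 and 185 in CAC tumors, against 4 and 4, so that CAC tumor 1, the array with the highest members, was its lowest tumor. In sporadic tumors Sox17 had 305, 302, 820, 611 and 653, against 4 on all controls, and Lmo2 had 259, 624, 781, 927 and 695, against 9, 9 and 10. Both were lower in sporadic tumor 1 than in the median sporadic tumor. Erg and Tal1, transcription factor genes of endothelium and blood, stayed at 4 to 6 on all arrays. Of 12 genes of hemostasis and activated endothelium, 5 rose and 3 fell in the CAC model, and 4 rose and 2 fell in the sporadic model. Those that rose in both included the leukocyte adhesion genes Icam1 (log2 3.81 and 3.61) and Vcam1 (log2 2.53 and 2.54), the thrombomodulin gene Thbd (log2 2.34 and 1.88) and Procr, the endothelial protein C receptor gene (log2 2.28 and 3.04), while Edn1, the endothelin gene, fell in both (log2 -1.75 in each). The other falls were steps of 1 unit near the floor, of F8 in CAC tumors (4 against 5 and 5) and of Sele in both models (6 against 7). The CAC count of 5 became 2 without either CAC control. Of 10 Notch and ephrin genes, 3 rose and 1 fell in the CAC model, and 4 rose and 0 fell in the sporadic model, led by Notch1 (log2 2.63 and 1.72). The CAC count of 3 became 1 without CAC control 1. Of 4 measured lymphatic genes, 2 rose for CAC tumors and 3 for sporadic tumors. Prox1, a lymphatic transcription factor gene that colon epithelial tumors also express, had 11, 44, 27 and 38 in CAC tumors, against 7 and 7, and 49, 68, 45, 112 and 127 in sporadic tumors, against 6 on all controls. The CAC count of 2 became 0 without either CAC control and 1 without CAC tumor 2.

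**Figure D5:**
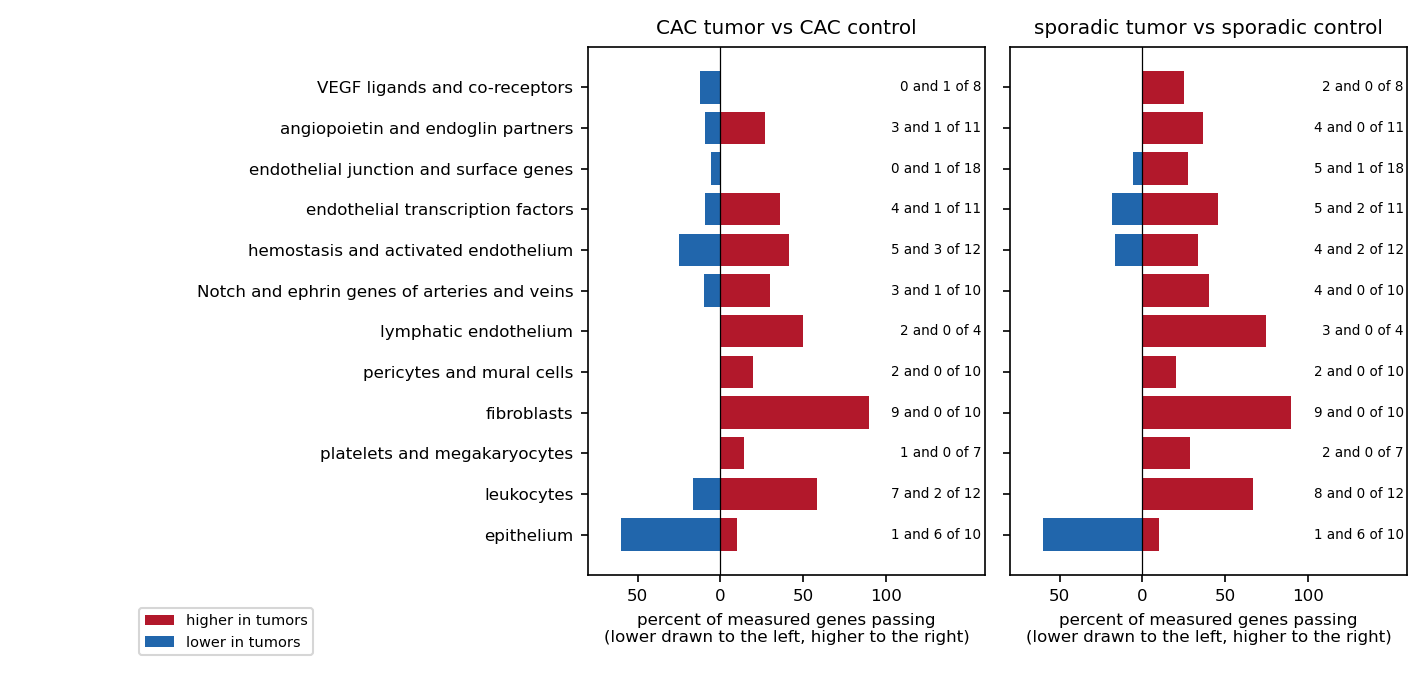
Percent of the measured genes of each list that were higher (red, to the right) or lower (blue, to the left) in tumors at an adjusted p under 0.05, for the CAC model (left) and the sporadic model (right), with the counts of higher and lower genes of those measured printed at the right. Fibroblast genes have the longest red bars (9 of 10 higher in each model), and epithelial genes the longest blue ones (6 of 10 lower in each model).

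Markers of other cell types were counted in the same way. Of 10 fibroblast genes, 9 rose in each model, and their summed intensity was 6010 to 13937 in CAC tumors, against 176 to 303 in CAC controls, and 8485 to 16800 in sporadic tumors, against 75 to 98 in sporadic controls. It was highest in CAC tumor 1 and in sporadic tumor 1, as the members' sum was. Of 10 pericyte and mural cell genes, 2 rose in each model, Acta2 and Pdgfrb. This is near the share over all 13095 genes, of which 2095 rose for CAC tumors and 2563 for sporadic tumors. The mural sums were 478 to 1351 in CAC tumors, against 74 to 84, and 287 to 1127 in sporadic tumors, against 69 to 72. Acta2 alone made up most of them in tumors, with 391 to 1153 in CAC tumors and 226 to 912 in sporadic tumors. These sums too were highest in the tumors numbered 1. Without any one of CAC tumors 1, 2 and 4, sporadic tumors 1 and 2 or any control array, 1 mural gene and not 2 passed in that model. Of 12 leukocyte genes, 7 rose and 2 fell for CAC tumors and 8 rose for sporadic tumors, with sums of 1372 to 2390 against 379 to 441, and of 1011 to 2062 against 363 to 431. The 2 that fell were Cd3e, at 8 on all CAC tumors against 9 and 12 in CAC controls, and Cd79a, at 5 against 6 and 6, both small steps near the floor. CAC tumor 1 had the lowest leukocyte sum of its group (1372), and Ptprc, the pan-leukocyte gene, was 54 there and 115 to 133 in the other CAC tumors, against 51 and 20 in CAC controls. Of 7 measured platelet genes, 1 rose for CAC tumors and 2 for sporadic tumors. Pf4 rose in both (log2 2.57 and 1.66), and Gp1bb rose in sporadic tumors (log2 1.70, adjusted p 0.00764). The defining platelet integrin gene Itga2b was at 4 on all 14 arrays, where its presence or absence cannot be judged. Of 10 epithelial genes, 1 rose and 6 fell in each model, with sums of 63304 to 75405 in CAC tumors, against 91115 to 93784, and 49443 to 59139 in sporadic tumors, against 75613 to 77051. With 1 array left out the CAC count of 6 was 4 to 5. Krt18 rose (log2 1.00 and 0.98), and Vil1 (log2 -1.07 and -1.16) and Lgals4 (log2 -0.84 and -1.44) were among those that fell. Epcam passed in neither model (log2 -0.12 and 0.08). The part of cell composition in the members' changes was not tested.

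For Plvap, Vwf, Eng and Esam, whose level reached 32 in at least 1 group, the genes with the nearest pattern over all 14 arrays were found by the root mean square difference of log2 values, each gene centred on its own mean. Plvap was nearest to Glipr1 (0.33), the lysosomal protease gene Lgmn (0.44) and the fatty acid binding protein gene Fabp4 (0.47), the last also known from capillary endothelium. Vwf was nearest to Tubb5 (0.32), Krt7 (0.35) and Tspan5 (0.36), and Eng to Tcf21 (0.34), Mcm3 (0.35) and Nucb2 (0.37). Esam was nearest to Cd93 (0.51), Plk4 (0.52) and the pericyte gene Rgs5 (0.57). The step between tumors and controls is part of every one of these values.

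Promoter sequences from RefSeq (GRCm38.p6) of 300 bases around the start site were at hand for 5 of the 9 genes. Both strands were searched for AGGAAG and CGGAAG, which hold the GGAA core bound by ETS factors, the family that many endothelial genes use. Of 32851 promoters in the table, 46.5% hold at least 1 of them (35.4% AGGAAG and 16.9% CGGAAG). Eng and Flt1 hold 2 each, Tie1 holds 3, and Kdr and Tek hold 0 in this window. The 2 receptor genes with a called rise and the undetected Kdr are shown, with the matches in capitals. Tie1, which holds 3 matches and passed in neither model, and Tek are not shown. Eng lies at chr2:32646345-32646644 on the plus strand, Flt1 at chr5:147725962-147726261 on the minus strand and Kdr at chr5:75978406-75978705 on the minus strand.
Eng: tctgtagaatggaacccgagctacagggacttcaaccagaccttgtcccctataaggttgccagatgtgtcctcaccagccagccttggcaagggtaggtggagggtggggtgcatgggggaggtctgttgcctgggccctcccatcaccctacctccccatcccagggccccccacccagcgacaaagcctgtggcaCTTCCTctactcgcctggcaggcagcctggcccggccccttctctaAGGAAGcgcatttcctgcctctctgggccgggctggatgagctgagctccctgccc
Flt1: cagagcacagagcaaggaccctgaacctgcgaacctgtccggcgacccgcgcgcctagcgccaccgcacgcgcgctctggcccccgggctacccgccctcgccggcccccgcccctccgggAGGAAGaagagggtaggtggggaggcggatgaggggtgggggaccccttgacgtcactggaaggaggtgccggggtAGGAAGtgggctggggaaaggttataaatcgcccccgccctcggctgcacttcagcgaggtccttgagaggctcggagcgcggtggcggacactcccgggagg
Kdr: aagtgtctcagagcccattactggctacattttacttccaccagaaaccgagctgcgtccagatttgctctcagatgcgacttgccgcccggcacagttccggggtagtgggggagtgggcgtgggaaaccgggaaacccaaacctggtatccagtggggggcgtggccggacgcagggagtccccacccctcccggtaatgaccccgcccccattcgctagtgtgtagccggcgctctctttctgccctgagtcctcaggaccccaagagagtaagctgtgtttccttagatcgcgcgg
In Eng the matches begin 52 and 6 bases before the start site, and in Flt1 129 and 53 bases before it. No match in a window says only that these letters are not there, and a match is not evidence of binding. Among the genes of this factor family in the lists used here, Ets1 rose in both models on the brightest of its 4 probe sets (log2 1.78 and 1.92). Fli1 and Erg were near the floor. Other genes of the family are not given here.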

How the data were processed

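The deposited values are GCRMA signal intensities on a linear scale, one column per array in the authors' deposited table, rounded to whole numbers. GCRMA is named in the submitters' processing notes; its settings and version are not stated there. The same table holds the authors' fold changes (a ratio) and corrected p-values, which were used only where they are named. The deposited value table of the arrays held the same intensities (0 values differed). In these values 1587 probe sets had 1 whole number on all 14 arrays, and steps of 1 unit near the floor are within the rounding.

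Intensities were taken as log2 with no offset and no filter, and 64 control probe sets were left out. The log2 values of 22626 probe sets were fitted with limma 3.58.1 in R 4.3.3 (lmFit and eBayes) as 4 group means over all 14 arrays, with the contrasts tumor minus control in each model, CAC minus sporadic between tumors and between controls, and the difference of the tumor changes. The adjusted p is Benjamini-Hochberg's, with a threshold of 0.05. The script was tested on simulated data. Gene lists used the brightest probe set of each gene, with symbols updated through RefSeq (GRCm38.p6). Named were all members and 3 nearest genes per bright member. Up to 4 passing genes of largest change in either direction per list and tumor comparison could be named, and not all of them were. Those left out of the results above include the fibroblast genes, the leukocyte genes Csf1r, Tyrobp and Fcer1g, and Efnb2, the Notch and ephrin gene that fell. Other names are given as chosen after their values were seen or stand for a defining gene of a list. The members and lists were chosen with earlier results of these data known. Same-numbered arrays did not deviate together (r from -0.083 to 0.054), so the numbers were not taken to pair samples. Alternatives were the threshold, a fold minimum of 2, an offset of 16, a filter at a group mean of 32, quantile normalization, trend and robust eBayes, fits of only the groups compared, the replicate block and each array left out.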

Additional observations from a re-analysis of the deposited data

Results flagged for a closer look

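Of 19 sets of member values within a tumor group, 4 held an array far from the rest, by the gap over the range. For Kdr, Tie1 and Tek the other arrays of the group held 1 tied rounded number, where any array that differs is flagged. The sets also share the same arrays, so no chance rate is set beside the count of 4. Esam was 112 in sporadic tumor 1, and 15 to 24 in the other sporadic tumors. Kdr was 11 in sporadic tumor 1 and 5 in the other 4 sporadic tumors. Tie1 was 8 in CAC tumor 1 and 6 in the other CAC tumors, and Tek was 8 in sporadic tumor 3 and 6 in the other sporadic tumors. The last 2 are steps of 2 units near the floor of the arrays. The sums of the mural and fibroblast genes were also highest in sporadic tumor 1, and their part in the value of Esam was not tested.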

How the results depend on the processing

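The 5 member probe sets higher in CAC tumors were 3 at an adjusted p threshold of 0.01, 3 with an offset of 16, and 3 of the 4 tested with a group mean of at least 32. With 1 array left out the CAC count was 3 to 5, with 3 without either CAC control, and the sporadic count was 4 to 6. Between tumors, the count higher in CAC tumors was 0 to 1 with 1 array left out (1, Esam, without sporadic tumor 1, adjusted p 0.0229) and 1 without both tumors numbered 1. The count lower in CAC tumors was 0 to 1 (1, Vwf, without CAC tumor 1) and 1 with a group mean of at least 32. Between controls, fits of only the groups compared called 1 higher and 1 lower, Flt1 probe set 1454037_a_at and Esam, whose rounded values had no spread. Without both tumors numbered 1, the difference of the tumor changes had 1 higher member, Esam. The cause of these shifts was not tested. With the replicate number as a block, 5 members passed for CAC tumors and 7 for sporadic tumors, Tie1 (adjusted p 0.0236) and Esam (adjusted p 0.0348) besides the other 5; the numbers do not pair the samples. No direction of a called change reversed under any of these alternatives. Signals under 10 limit what could be seen for Kdr, Tek, Tie1 and 2 probe sets of Flt1.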

Other observations

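Ppbp, a platelet chemokine gene listed as Cxcl7, had 3434 in CAC tumor 1 and 25, 10 and 8 in the other CAC tumors. Selp, the P-selectin gene of platelets and activated endothelium, had 95 in CAC tumor 1 and 10, 10 and 13 in the others. Mcam, a gene of endothelium and pericytes, had 48, 23, 8 and 8 in CAC tumors, and 41, 22, 5, 6 and 6 in sporadic tumors. These genes were picked after their values were seen. Of the other measured platelet genes, Pf4 had 185, 107, 104 and 141 in CAC tumors and Gp1bb 32, 20, 9 and 15, both highest in CAC tumor 1. The rest stayed at 4 to 7 in CAC tumors. Among them the platelet integrin gene Itga2b was at 4 on all arrays, where its presence or absence cannot be judged. The source of these values was not tested.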
